A study of Homo sapiens with 2 samples.

Results

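Among single-cell barcodes of H1 human embryonic stem cells, 1287 barcodes held few mitochondrial transcripts. They were chosen by a measured value: at least 1000 unique molecular identifiers (UMIs, each 1 captured RNA molecule), at least 500 genes, and less than 2% of UMIs from genes of the mitochondrial genome, whose symbols start with MT-. They made up 784 of the 2943 WT barcodes and 503 of the 2292 KO barcodes that met the same UMI and gene minimum, out of 1683456 barcodes listed in all. They were compared with the 1563 WT and 1163 KO barcodes of the same minimum that held 3% to 8% MT- UMIs. H1 (WA01) is an established human embryonic stem cell line. The WT library came from unedited H1 cells, and the KO library from H1 cells with a homozygous knockout of the zinc finger gene ZNF263 made with Cas9, and the labels do not say whether that line is 1 clone. Both cultures were taken to single cells with TrypLE, stained with a viability dye and captured on barcoded beads in microwells by their polyadenylated RNA, and both were sequenced as 1 library. With 1 library for each genotype and a rule that used the measured MT- share, no difference could be tested, and all values below are descriptions. Intervals are 95% intervals that cover counting error, and those of medians over genes reflect the spread between genes.

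A human cell holds RNA in separate compartments. Transcripts of the mitochondrial genome are made and kept inside mitochondria. Most messenger RNAs are translated by free ribosomes in the cytosol, whereas messages of secreted and membrane proteins are brought to the endoplasmic reticulum, because the signal recognition particle binds a hydrophobic signal sequence or first membrane-spanning segment as it leaves the ribosome. Some long noncoding RNAs, with MALAT1 as the best known, stay in the nucleus.

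The first 90 coding bases of 5 genes are shown as examples. Genes with a hydrophobic stretch near the start were lower more often than others, as described below. Some genes without such a start were lower as well, and some with a signal sequence were not. Capitals mark the 30 bases whose 10 codons have the highest mean hydropathy in that window. The sequences are the coding strand of GENCODE release 29 transcripts on GRCh38, 5′ to 3′. HSPA5 (BiP, a chaperone of the endoplasmic reticulum, chr9:125241037-125241126, minus strand), SPARC (a secreted matrix protein, chr5:151674642-151676188, minus strand, over an intron) and SFRP2 (a secreted WNT antagonist, chr4:153788746-153788835, minus strand) begin with a signal sequence. FGF2 (chr4:122827175-122827264, plus strand) encodes a growth factor that leaves the cell without a signal sequence, and LIN28A (chr1:26410892-26411444, plus strand, over an intron) encodes a cytosolic RNA-binding protein of stem cells.
HSPA5: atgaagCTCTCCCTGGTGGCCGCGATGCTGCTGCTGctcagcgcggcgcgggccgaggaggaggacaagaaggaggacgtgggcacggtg
SPARC: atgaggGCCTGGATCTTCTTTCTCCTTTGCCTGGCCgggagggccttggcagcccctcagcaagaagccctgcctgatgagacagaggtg
SFRP2: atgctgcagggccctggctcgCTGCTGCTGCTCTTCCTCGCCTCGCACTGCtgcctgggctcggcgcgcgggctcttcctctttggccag
FGF2: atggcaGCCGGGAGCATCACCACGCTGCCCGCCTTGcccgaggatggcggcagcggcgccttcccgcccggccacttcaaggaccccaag
LIN28A: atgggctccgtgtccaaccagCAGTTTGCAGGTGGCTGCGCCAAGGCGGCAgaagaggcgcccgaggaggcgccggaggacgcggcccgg
On the Kyte-Doolittle scale, where higher values are more hydrophobic, the capital codons averaged 2.79 for HSPA5, 2.67 for SPARC and 2.21 for SFRP2. They averaged 1.15 for FGF2 and 0.43 for LIN28A.

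Barcodes under 2% MT- UMIs formed the lower of the peaks in the distribution of mitochondrial shares. In the WT library the share of barcodes under 2% was 26.6% (Clopper-Pearson interval 25% to 28.3%), and in the KO library 21.9% (20.3% to 23.7%). In steps of 0.5%, the WT library had 279 barcodes at 0.5% to 1%, a low point of 112 at 2.5% to 3%, and a second peak of 217 at 4% to 4.5%. The KO library had 154 barcodes at 0.5% to 1%, a low point of 50 at 3% to 3.5% and a second peak of 184 at 5% to 5.5%. The rule's limit of 2% thus cut the upper flank of the lower peak in both libraries. Median MT- shares were 1.08% (WT) and 1.14% (KO) in the barcodes chosen and 5.18% and 5.37% in the comparison barcodes.

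**Figure D1:**
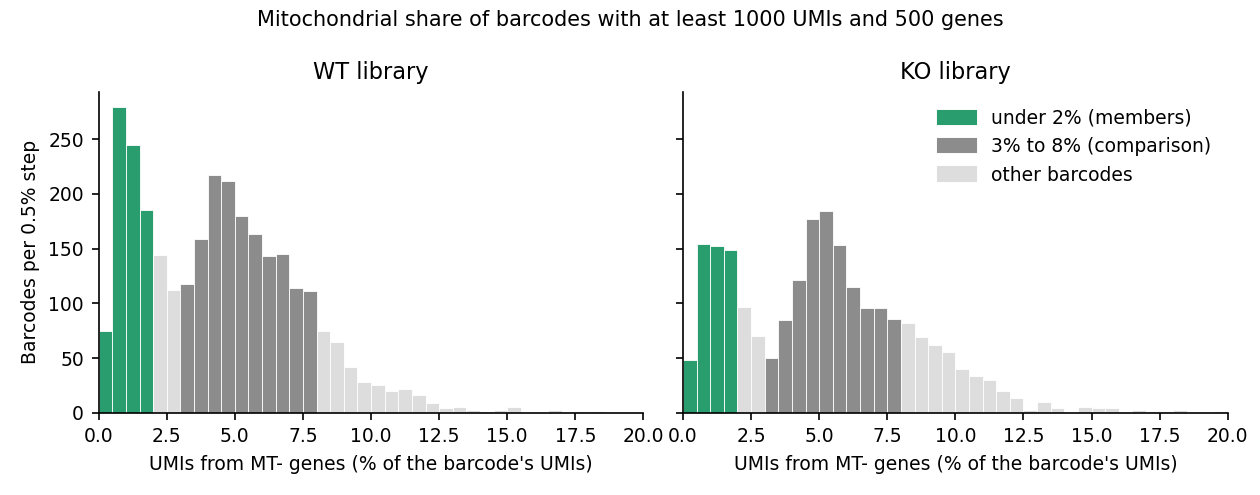
Number of barcodes (vertical axis) per 0.5% step of the share of UMIs from MT- genes (horizontal axis, in percent) among barcodes with at least 1000 UMIs and 500 genes, in the WT and KO libraries, with barcodes under 2% in green and those of 3% to 8% in dark grey. Both libraries show a peak under 2% and another above 4%, with a low point of 112 barcodes per step in WT and 50 in KO between them.

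The barcodes with few mitochondrial UMIs were not the shallow ones. Their median depth was 1415.5 UMIs in WT and 1418 in KO, against 1288 and 1189 in the comparison barcodes, and they held a median of 855 and 843 genes against 836 and 752. At equal depth they were slightly less diverse. With each barcode thinned to 1000 UMIs, the median was 665 genes against 689 in WT and 651 against 659 in KO. Barcodes of 10 to 100 UMIs, which are too shallow to be taken as cells, held 4.64% (WT) and 5.20% (KO) MT- UMIs, far above the barcodes chosen. No barcode sequence was shared between the chosen barcodes of both libraries, whereas 20 were shared among all barcodes of the minimum. Of these, 4 were WT barcodes of the chosen set and 2 were KO barcodes of the chosen set.

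The mitochondrially encoded genes were low by construction, so their values only describe the chosen barcodes. Levels are given as CPM, the count of a gene scaled to the UMIs of all genes other than MT- genes, summed over the barcodes of a class. MT-COX1, the gene also called MT-CO1 and a subunit of cytochrome c oxidase, was at 732 CPM (929 UMIs) in the chosen WT barcodes and 4287 CPM in the comparison. In KO it was at 741 CPM (594 UMIs) and 3956 CPM. MT-ND3, a subunit of complex I, was at 189 against 1334 CPM in WT and 355 against 2156 CPM in KO, and MT-ATP6, of the ATP synthase, at 610 against 3956 CPM in WT and 770 against 4692 CPM in KO. All 15 mitochondrially encoded genes that reached 20 CPM were lower in both libraries, with a median log2 ratio of −2.58 in WT and −2.46 in KO.

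The mitochondrial ribosomal RNAs were less low than the messenger RNAs. Both rRNAs together were 4.45-fold lower in the chosen WT barcodes and 4.5-fold lower in KO, and the messenger RNAs 5.95-fold and 5.66-fold lower. The rRNAs were 30.9% of MT- UMIs in the chosen WT barcodes and 25% in the comparison, and 36.2% and 31.1% in KO. MTATP6P1, a nuclear pseudogene with a sequence nearly the same as mitochondrial genes, was 5.55-fold lower in WT and 6.75-fold lower in KO. Reads of a mitochondrial gene and of this copy may be split between both by the counting, so its value is uncertain.

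Across all other genes, the difference between the chosen and the comparison barcodes was mostly one of lower levels. A gene entered with a mean of at least 50 CPM over both classes in each library, which 2797 genes met, and was called at a ratio of at least 1.5-fold. In WT 317 genes (11.3%) were lower and 44 (1.57%) higher in the chosen barcodes. In KO 281 genes (10.0%) were lower and 32 (1.14%) higher. When CPM was taken over all UMIs, MT- genes included, 249 KO genes were lower and 64 higher. The counts of higher genes were the less stable ones, and over all alternatives they ranged from 13 to 139 in WT and from 5 to 185 in KO. Both libraries together gave 243 genes lower (8.69%) and 4 higher (0.143%). The median log2 ratio was 0.08 in each library, with 95% of genes between −1.51 and 0.54 in WT and between −1.45 and 0.51 in KO. The median half-width of a gene's own counting interval was 0.30 in WT and 0.38 in KO. The width depends on the gene's UMIs, so genes with many UMIs had narrower intervals and genes with few had wider ones.

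The same genes were low in both libraries. Of the WT genes called lower, 76.7% were also called lower in KO, and of the KO genes, 86.5% were called lower in WT. Across the 2797 genes, which are not independent replicates, the log2 ratios of the libraries had a Pearson correlation of 0.82 and a Spearman correlation of 0.54. The plot of WT against KO ratios shows a dense cloud near 0 and a tail that reaches down in both libraries at once.

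**Figure D2:**
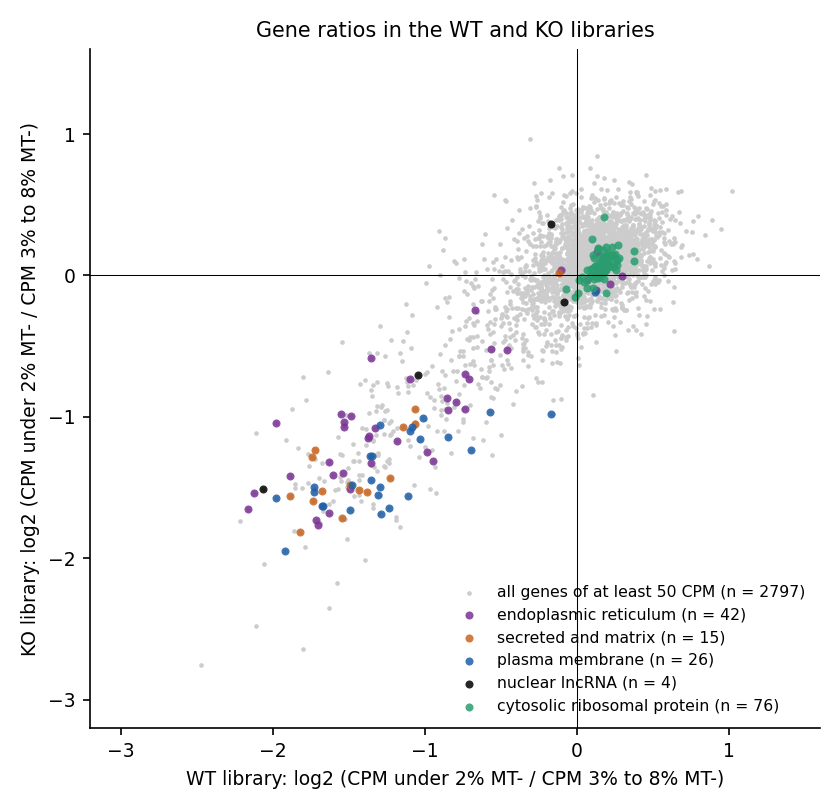
Log2 ratio of CPM in barcodes under 2% over CPM in barcodes of 3% to 8% MT- UMIs, in the WT library (horizontal) and the KO library (vertical), 1 point per gene of at least 50 CPM (n = 2797), with 5 gene lists in colour. Genes of the endoplasmic reticulum, secreted, plasma membrane and nuclear noncoding lists lie mostly in the lower left, and the 76 cytosolic ribosomal protein genes lie near 0.

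Genes that bring proteins into the endoplasmic reticulum and fold them there were lower in the chosen barcodes. Of the 53 members of this list that reached 20 CPM (of 56 written), 39 were at least 1.5-fold lower in both libraries and 0 were higher, where 623 of all 5392 genes at the same minimum were lower (11.6%) and 23 higher (0.427%). The list's median log2 ratio was −1.35 in WT (−1.49 to −0.85) and −1.04 in KO (−1.25 to −0.80), against −0.01 and 0.03 over all genes at that minimum. HSP90B1 (GRP94), the HSP90 chaperone of the endoplasmic reticulum, was at 363 CPM (460 UMIs) in the chosen WT barcodes and 1192 CPM in the comparison. In KO it was at 322 CPM (258 UMIs) and 1068 CPM. Its log2 ratio was thus −1.72 (−1.86 to −1.57) in WT and −1.73 (−1.92 to −1.54) in KO, the same in both libraries within counting error.

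Chaperones, oxidoreductases and subunits of the oligosaccharyltransferase were among the lower members. HSPA5 was at 125 against 405 CPM in WT and 119 against 403 CPM in KO, a log2 ratio of −1.70 (−1.95 to −1.46) and −1.77 (−2.09 to −1.45). CALR, the lectin chaperone calreticulin, was 2.90-fold lower in WT and 2.64-fold in KO, and PDIA6, a protein disulfide isomerase, 3.70-fold and 2.67-fold. Among genes with fewer UMIs, STT3A, a catalytic subunit of the oligosaccharyltransferase, was at 4.7 CPM (6 UMIs) against 48.6 CPM in WT and at 12.5 CPM (10 UMIs) against 47.8 CPM in KO. DDOST, another subunit of that enzyme, had log2 ratios of −1.62 and −2.11. DNAJB11, a co-chaperone of HSPA5, had −1.95 and −2.23, and LMAN1, a cargo receptor for export, −2.16 and −1.65.

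Some members of that list stood near 0. SEC61B, a small subunit of the translocon that is inserted into the membrane after its synthesis by its tail, was at 356 CPM in the chosen WT barcodes and 339 in the comparison, and at 320 and 326 CPM in KO. SEC61G, another such small subunit, had a log2 ratio of 0.30 (0.12 to 0.47) in WT and 0.00 in KO. SEC61A1, the large subunit with many membrane segments, had −1.41 (−2.03 to −0.83) and −1.01 (−1.76 to −0.33). SRP14 and SRP9, cytosolic protein subunits of the signal recognition particle, and SEC13 and SEC31A, cytosolic coat proteins of export vesicles, were within 1.5-fold in both libraries. A list of the 6 signal recognition particle subunits, drawn up after these values were seen, had a median of 0.16 in WT and 0.04 in KO. In a list of 34 measured tail-anchored proteins drawn up the same way, 1 was 1.5-fold lower in both libraries (2.94%, against 11.6% of all genes). The median of that list was 0.15 in WT and 0.12 in KO.

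Most measured genes of secreted and matrix proteins were lower in the chosen barcodes. Of 29 members at the minimum (of 65 written), 25 were at least 1.5-fold lower in both libraries and 0 higher. These 25 were 86.2%, against 11.6% of all genes at that minimum. The median log2 ratio was −1.49 (−1.68 to −1.10) in WT and −1.44 (−1.56 to −1.23) in KO. PTN, the secreted growth factor pleiotrophin, was at 304 CPM (386 UMIs) against 1011 CPM in WT and 137 CPM (110 UMIs) against 415 CPM in KO, and the log2 ratios were −1.73 (−1.89 to −1.58) and −1.59 (−1.9 to −1.3). The KO levels of PTN were lower than the WT levels in both classes, while its ratio between classes was alike. VCAN, the matrix proteoglycan versican, was 3.53-fold lower in WT and 3.51-fold in KO, and FST, the activin antagonist follistatin, 3.70-fold and 2.95-fold.

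SPARC was at 58.3 against 170 CPM in WT and 42.4 against 140 CPM in KO, and SFRP2 at 151 against 426 CPM in WT and 146 against 408 CPM in KO. COL1A2, a chain of type I collagen, had log2 ratios of −2.52 (12 UMIs in the chosen WT barcodes) and −1.76 (11 UMIs in KO), and LAMC1, a laminin chain, −1.68 and −1.70. FGF2, which has no signal sequence as shown above, was at 44.9 CPM (57 UMIs) against 38.3 CPM in WT and 51.2 CPM (41 UMIs) against 45.3 CPM in KO. Its log2 ratios of 0.23 (−0.27 to 0.73) and 0.18 (−0.41 to 0.75) did not differ from 0 beyond counting error. The growth factor thus stood with the cytosolic genes rather than with the other secreted ones in both libraries. GAL, a secreted neuropeptide with a signal sequence, and OLFM1, a secreted glycoprotein, were other members of the list within 1.5-fold.

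Plasma membrane genes were lower to a similar extent. Of 44 members at the minimum (of 65 written), 39 were at least 1.5-fold lower in both libraries and 0 higher. These 39 were 88.6%, against 11.6% of all genes at that minimum. The median was −1.3 in WT (−1.48 to −1.14) and in KO (−1.5 to −1.16). PRTG, an adhesion receptor of early neural tissue, was not in this list but among the 12 lowest genes. It was at 120 CPM (152 UMIs) against 500 CPM in WT and 25 CPM (20 UMIs) against 103 CPM in KO. Its low level was not particular to the chosen barcodes. At 8% to 20% MT- UMIs it was at 217 CPM in WT and 27.9 CPM (21 UMIs) in KO. PTPRZ1, a receptor phosphatase that binds PTN, had log2 ratios of −1.92 and −1.95. GJA1 and ATP2B1 were also outside the list and among the 12 lowest genes. GJA1, the gap junction protein connexin 43, had −1.86 and −1.81, and ATP2B1, a calcium pump of the plasma membrane, −2.22 and −1.73.

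APP, the amyloid precursor protein, had log2 ratios of −2.0 and −2.22, CDH2, N-cadherin, −1.81 and −2.44, and GPC3, a membrane-anchored proteoglycan, −1.98 and −1.58. EPCAM, an epithelial adhesion protein of stem cells, had −0.70 and −1.24. Carriers of the SLC family showed a split by compartment. Of 38 measured SLC genes outside the SLC25 family, 30 were at least 1.5-fold lower in both libraries, with medians of −1.10 and −1.21. These 30 were 78.9%, against 11.6% of all genes at that minimum. Of 15 SLC25 genes, which encode carriers of the inner mitochondrial membrane, 1 was, with medians of 0.21 and 0.15. Of 38 measured TMEM genes, named for predicted membrane segments, 12 were lower in both libraries (31.6%), with medians of −0.34 and −0.40. Both SLC lists and the TMEM list were drawn up after values of these data were seen.

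The endoplasmic reticulum, secreted and plasma membrane lists together held 126 measured genes. Of these, 103 were at least 1.5-fold lower in both libraries (81.7%, against 11.6% of all genes at that minimum). Their UMIs summed to 13480 CPM in the chosen WT barcodes and 26304 CPM in the comparison, a 1.95-fold difference. In KO they summed to 13178 and 25087 CPM, a 1.9-fold difference.

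The ratio followed the hydrophobic stretches of the encoded protein. For 2596 of the 2797 genes a coding sequence was matched by symbol. Windows of 19 residues with a mean Kyte-Doolittle hydropathy of at least 1.6 that did not overlap were each counted as 1 stretch. A long hydrophobic region could thus count as more than 1. This split was chosen after list values of these data were known. Of all genes tested, 8.69% were at least 1.5-fold lower in both libraries. Of 2106 genes without a stretch, 58 were at least 1.5-fold lower in both libraries (2.75%), and the median log2 ratio was 0.10 in each. In 149 genes the first stretch lay wholly within the first 40 codons, where signal sequences and early membrane anchors lie. Of these, 95 were lower (63.8%), with medians of −1.07 (−1.23 to −0.87) in WT and −0.98 (−1.08 to −0.86) in KO. Of 341 genes with a first stretch further on, 76 were lower (22.3%), with medians of −0.03 and 0.02. A first stretch near the start thus went with lower ratios than one further on.

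The number of stretches was ordered in the same way. The share lower in both libraries was 23.7% of 317 genes with 1 stretch, 44.2% of 95 with 2, 56.4% of 55 with 3 to 5, and 23 of 23 genes with 6 or more. The medians of the last class were −1.29 in WT and −1.34 in KO. A stretch of 19 residues misses short signal sequences. Of 71 genes without a stretch but with a mean hydropathy of at least 2 over 10 of the first 30 codons, 13 were lower in both libraries (18.3%), against 45 of the 2035 without such a start (2.21%). SPARC and VCAN were among the 13.

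**Figure D3:**
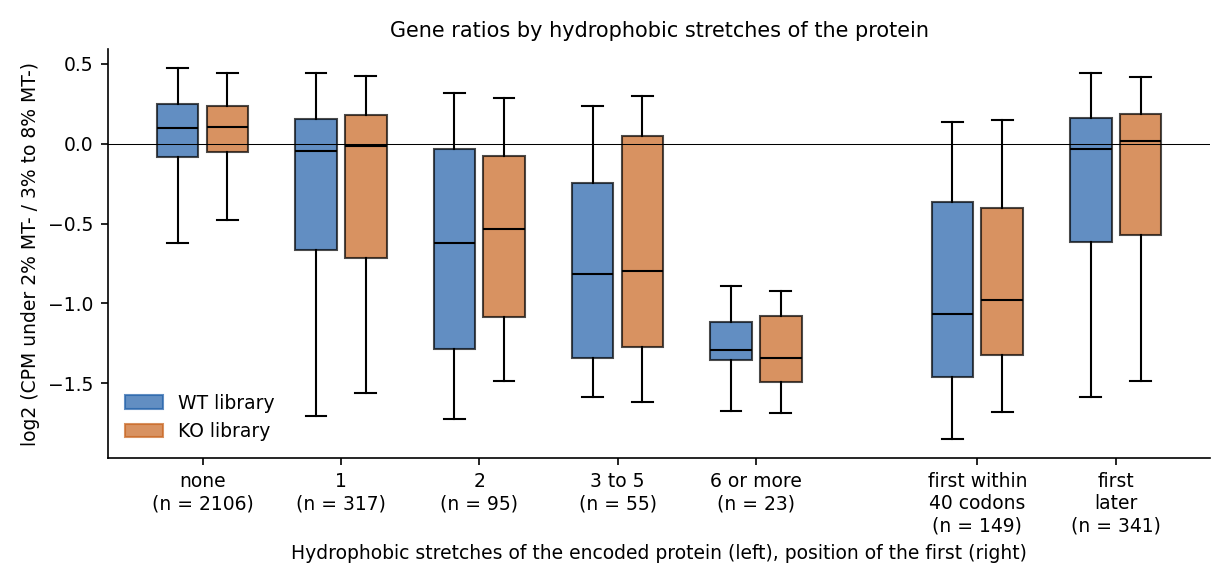
Log2 ratio of CPM in barcodes under 2% over 3% to 8% MT- UMIs (vertical axis) for genes grouped by the number of hydrophobic stretches of the encoded protein and by the position of the first stretch, WT in blue and KO in orange. Boxes span the quartiles with the median as a line and whiskers the 5th to 95th percentiles over genes, and medians go from 0.10 without a stretch to −1.29 (WT) and −1.34 (KO) with 6 or more.

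Among genes with an early stretch, longer coding sequences went with lower ratios. The 50 shortest, of 37 to 212 codons, had a median of −0.53 in WT and −0.57 in KO. The next 50, of 219 to 417 codons, had −1.13 and −1.10, and the 49 longest, of 418 to 1907 codons, −1.46 and −1.27. Across these 149 genes the Spearman correlation of ratio and codons was −0.44 in WT and −0.39 in KO. That of ratio and GC content of the coding sequence was −0.02 and −0.06. Across the 2106 genes without a stretch the correlation with codons was −0.19 and −0.07. These correlations are over genes of the same libraries and are given as descriptions.

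A set of lower genes had neither a stretch nor a hydrophobic start. Those named here were chosen after their values were seen. DBN1, an actin-binding protein, was at 35.5 against 123 CPM in WT and 16.2 against 101.3 CPM in KO, and SPTBN1, a spectrin of the membrane skeleton, was 3.45-fold and 3.78-fold lower. IQGAP1, AKAP12 and DST, which link the cytoskeleton to membranes or signalling, and CENPF and ASPM, large proteins of the dividing cell, were also at least 1.5-fold lower in both libraries. RCN1P2, a pseudogene of the endoplasmic reticulum protein gene RCN1, was 3.22-fold and 3.37-fold lower, and it may share reads with its parent gene.

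The chosen barcodes varied among themselves along the mitochondrial share. All 2261 genes with a first stretch within 40 codons, at any level, were summed. In WT they made up 2.43% of non-MT- UMIs in the 75 barcodes of 0% to 0.5% MT- UMIs, 2.82% in the 279 of 0.5% to 1%, 3.10% in the 245 of 1% to 1.5% and 3.56% in the 185 of 1.5% to 2%. In KO the same shares were 2.40%, 2.73%, 3.02% and 3.25%. The share was therefore higher in each step of mitochondrial share within the rule. Just outside the limit, at 2% to 3%, it was 4.0% in 256 WT barcodes and 3.49% in 167 KO barcodes. Above 3% it levelled off, with 5.36% at 3% to 5%, 5.56% at 5% to 8% and 5.69% at 8% to 20% in WT, and 4.94%, 5.16% and 5.18% in KO.

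Barcodes of 10 to 100 UMIs held 5.19% (WT) and 4.87% (KO) of these genes, near the comparison barcodes and not near the chosen ones. Single genes moved in the same steps. HSP90B1 was at 186, 299, 407 and 511 CPM over the steps from 0% to 2% in WT and at 197, 262, 298 and 459 CPM in KO, with 1153 and 1043 CPM at 3% to 5%. SEC61B was at 439, 282, 387 and 397 CPM in WT over the same steps, with no trend, and at 336 CPM at 3% to 5%.

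**Figure D4:**
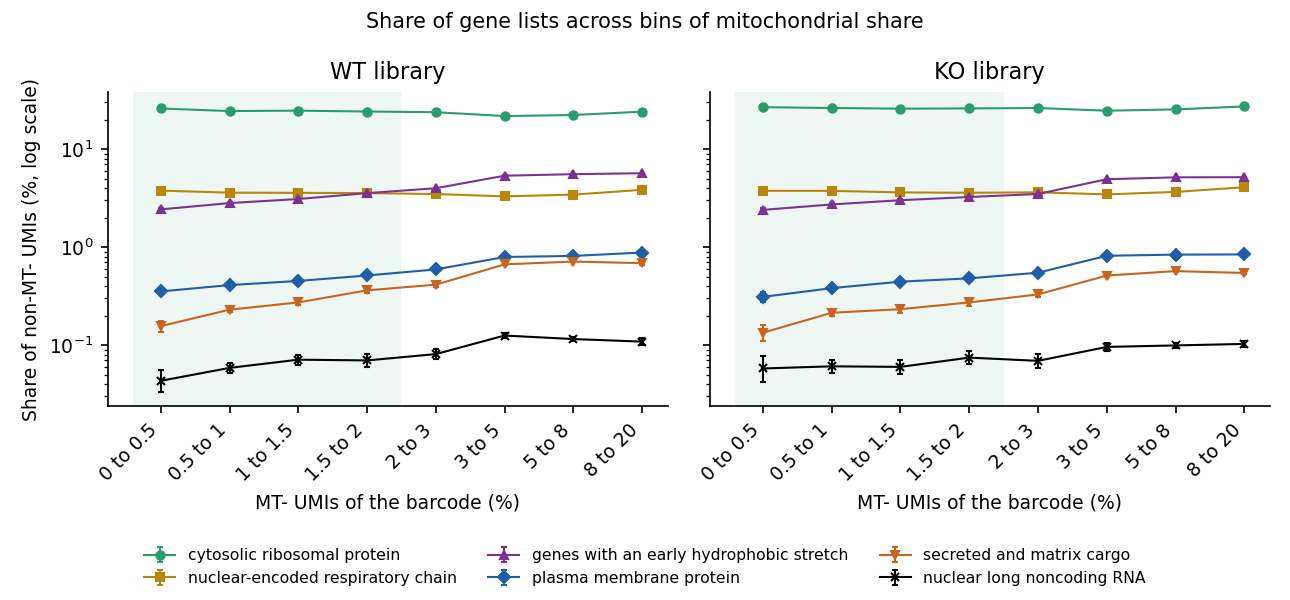
Share of non-MT- UMIs (vertical axis, percent, log scale) of 6 gene lists in bins of the barcodes' MT- share (horizontal axis, percent) in the WT and KO libraries, with 95% binomial intervals that cover counting error and the chosen barcodes shaded. Genes with an early hydrophobic stretch go from 2.43% to 5.69% in WT and from 2.40% to 5.18% in KO, and cytosolic ribosomal protein genes stay between 21.8% and 27.3% over all bins shown.

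The difference was present barcode by barcode. With each barcode thinned to 1000 UMIs, genes with an early stretch made up a median of 2.92% of non-MT- UMIs (quartiles 2.43% and 3.51%) in the chosen WT barcodes and 5.43% (4.85% and 6.07%) in the comparison. In KO the medians were 2.83% and 5.08%. Of the chosen barcodes, 98.1% in WT and 98.0% in KO lay below the median of the comparison barcodes of their library, and 88.3% and 83.3% below its 5th percentile. Within the 784 chosen WT barcodes the Spearman correlation of this share with the MT- share was 0.43, and within the 503 KO barcodes 0.36. Within the comparison barcodes it was 0.10 (n = 1563) and 0.09 (n = 1163). The points share a library, and both shares come from the same barcode's UMIs.

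**Figure D5:**
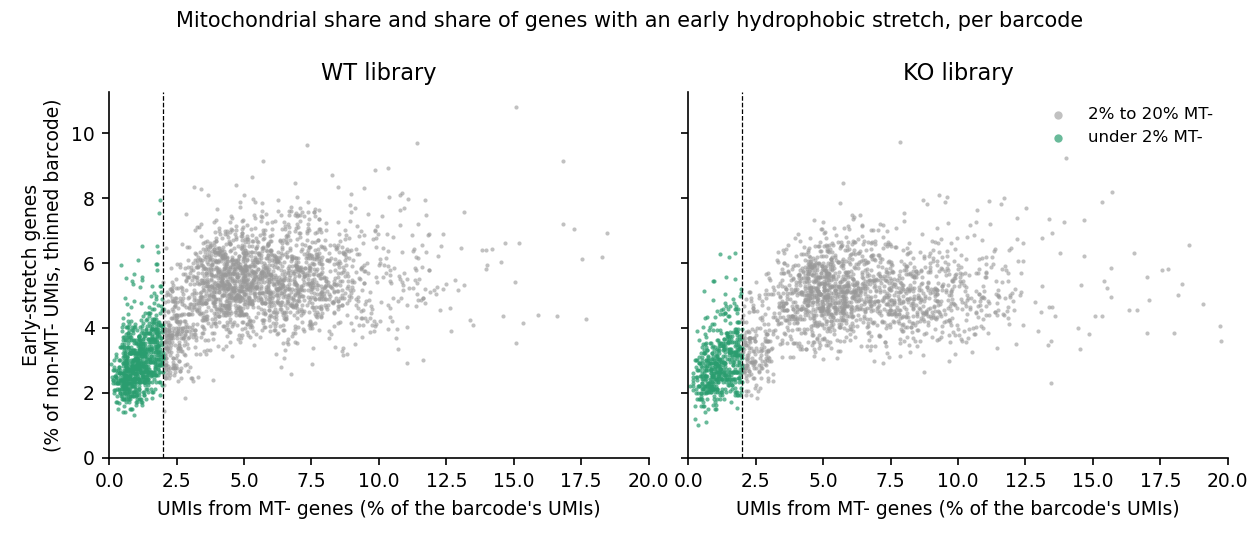
Share of UMIs from genes with an early hydrophobic stretch (vertical axis, percent of non-MT- UMIs after thinning to 1000 UMIs) against the share of MT- UMIs (horizontal axis, percent), 1 point per barcode, with barcodes under 2% in green and the limit as a dashed line. The green points have medians of 2.92% (WT) and 2.83% (KO), and barcodes of 3% to 8% have medians of 5.43% and 5.08%.

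Nuclear long noncoding RNAs were also lower, as far as their few members reached the minimum. Of 24 written, 5 reached 20 CPM, and 3 of these were at least 1.5-fold lower in both libraries, against 11.6% of all genes at that minimum. MALAT1, 1 of the genes by which these barcodes were to be checked, was lower rather than higher in them. It was at 21.3 CPM (27 UMIs) against 75.3 CPM in WT and 11.2 CPM (9 UMIs) against 45.3 CPM in KO, with log2 ratios of −1.82 (−2.46 to −1.23) and −2.01 (−3.2 to −1.01). MIAT, a noncoding RNA of nuclear bodies, was at 82.7 against 347 CPM in WT and 112 against 320 CPM in KO. TUG1 had log2 ratios of −1.05 and −0.71. NORAD, a noncoding RNA of the cytoplasm, had −0.08 and −0.19, and OIP5-AS1 −0.17 and 0.36.

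Transcripts that host small nucleolar RNAs in their introns were mixed. Of 20 at the minimum, 6 were at least 1.5-fold lower in both libraries, and the median was −0.31 in WT and −0.24 in KO. MIR17HG, which was written into this list although it hosts a microRNA cluster, had −2.11 and −2.48. SNHG3 had −1.57 and −1.51 and SNHG1 −1.47 and −1.19, while SNHG5 was at 1025 against 837 CPM in WT and 1098 against 1057 CPM in KO.

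Messages of splicing and nuclear RNA-binding proteins were lower about as often as all genes. Of 52 genes of this list at the minimum, 7 were at least 1.5-fold lower in both libraries (13.5%, against 11.6% of all genes at that minimum) and 0 higher, and the medians were −0.14 and 0.00. Of the members with the largest differences, SRRM2, a scaffold protein of nuclear speckles, was at 188 against 438 CPM in WT and 166 against 339 CPM in KO. NKTR, a cyclophilin of the same compartment, had log2 ratios of −1.36 and −0.97, and OGT, the O-GlcNAc transferase, −1.32 and −0.96. CLK1, a kinase of splicing factors, had −1.56 in WT and −0.54 (−1.46 to 0.31) in KO. Over all annotated long noncoding RNAs at the minimum, 11 of 61 were lower in both libraries (18%), with medians of −0.23 and −0.16.

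Cytosolic ribosomal protein genes were slightly higher in the chosen barcodes. None of the 76 at the minimum was 1.5-fold lower or higher in both libraries. Their median log2 ratio was 0.17 (0.14 to 0.19) in WT and 0.06 (0.04 to 0.09) in KO. Set against the median of 0.08 of all genes tested, the KO value became −0.01 and the WT value 0.10, so the direction in KO depended on the scaling. They summed to 24.7% of non-MT- UMIs in WT against 22.1% in the comparison, and to 26.2% against 25.2% in KO. In barcodes of 8% to 20% MT- UMIs they summed to 24.2% in WT and 27.3% in KO. A share above that of the comparison was thus not particular to the chosen barcodes. RPL8 was at 2559 against 2119 CPM in WT and 2489 against 2142 CPM in KO.

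Translation factors had medians of 0.21 in WT and 0.15 in KO over 38 genes, and 0 were 1.5-fold lower or higher in both libraries. EEF2, the translocation factor, was at 1110 against 799 CPM in WT and 919 against 712 CPM in KO, and EIF3B, a subunit of an initiation complex, had 0.59 and 0.50. EEF1A1 had 0.22 and 0.13. Cytosolic tRNA synthetases, added after values were seen, had 0.18 in both libraries over 19 genes.

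Nuclear genes of mitochondrial proteins were not lower as lists in the chosen barcodes, unlike the mitochondrial genome. Of 77 respiratory chain genes, 1 was at least 1.5-fold lower in both libraries (1.30%, against 11.6% of all genes at that minimum). The medians were 0.11 in WT and 0.04 in KO. COX6A1, a subunit of cytochrome c oxidase, was that gene, at 247 against 402 CPM in WT and 221 against 417 CPM in KO. NDUFB9, a subunit of complex I, had −0.57 and −0.76. ATP5F1B, the catalytic subunit of the ATP synthase, had 0.39 and 0.40. Mitochondrial ribosomal proteins had medians of 0.22 and 0.12 over 68 genes, and genes of mitochondrial import and chaperones 0.23 and 0.13 over 37. HSPD1, the mitochondrial chaperonin, was at 1556 against 1144 CPM in WT and 1538 against 1309 CPM in KO.

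The list of mitochondrial transcription and RNA processing had medians of 0.10 and 0.06 over 21 genes, of which 2 were lower in both libraries (9.52%, no more than the 11.6% of all genes). Those were PNPT1 and TEFM. PNPT1, a mitochondrial RNA nuclease, had log2 ratios of −0.94 and −0.72, and TEFM, the mitochondrial transcription elongation factor, −0.61 and −1.36. The lists of mitophagy, apoptosis, p53 targets, heat shock, dissociation response and the proteasome had 0 genes lower or higher by 1.5-fold in both libraries. They held 16, 11, 9, 15, 6 and 33 genes at the minimum, in that order. Of all genes at that minimum, 11.6% were lower and 0.427% higher in both. In WT, 2 p53 targets and 2 dissociation genes were lower, and in KO 1 and 0. In the apoptosis list 1 gene was higher in WT and another in KO. Heat shock genes had medians of 0.18 in WT and 0.20 in KO over 15 genes, and proteasome subunits 0.17 and 0.22 over 33.

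Genes of cholesterol synthesis were lower more often than all genes. Of 17 genes of cholesterol synthesis, whose later enzymes sit in the membrane of the endoplasmic reticulum, 9 were at least 1.5-fold lower in both libraries (52.9%, against 11.6% of all genes at that minimum), with medians of −0.89 and −0.95. SQLE, squalene epoxidase, was at 110 against 280.0 CPM in WT and 93.6 against 293 CPM in KO, and MSMO1, a sterol methyl oxidase, had log2 ratios of −1.19 and −1.71. FDFT1, squalene synthase, had 0.01 and 0.24.

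In the glycolysis list, 3 of 18 genes were lower in both libraries (16.7%), and in the ATF4 list 3 of 19 (15.8%), shares near the 11.6% of all genes at that minimum. The 3 glycolysis genes encode plasma membrane transporters. The glucose transporter genes SLC2A1 and SLC2A3 had log2 ratios of −1.29 and −1.5, and of −1.24 and −1.65, and the lactate transporter gene SLC16A1 had −1.35 and −1.45. GAPDH, a cytosolic enzyme, was at 5469 against 4387 CPM in WT and 4365 against 3756 CPM in KO. Those of the ATF4 list were the amino acid transporter genes SLC7A11 and SLC3A2 and the secreted hormone gene STC2, and its medians were 0.15 and 0.08.

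Cell cycle lists were near 0, with medians of 0.03 and 0.02 over 31 S phase genes and of 0.04 and 0.11 over 46 G2 and M phase genes. Of the latter, 4 were at least 1.5-fold lower in both libraries (8.70%, against 11.6% of all genes at that minimum). CENPF, a large kinetochore protein, was at 217 against 548 CPM in WT and 175 against 392 CPM in KO. ANLN, an actin-binding protein of the cleavage furrow, had −1.76 and −1.62, and LBR, a membrane protein of the nuclear envelope, −1.76 and −1.34. Of 50 genes of the actin and microtubule cytoskeleton list, 2 were at least 1.5-fold lower (4.0%) and 2 higher in both libraries, with medians of 0.06 and 0.10. Of all genes at that minimum, 11.6% were lower and 0.427% higher. FLNA, an actin crosslinker, had −1.76 and −1.26, whereas ARPC1B, an Arp2/3 subunit, had 0.87 and 0.77, and PDLIM1, an actin-associated adaptor, 1.02 and 0.60.

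Few genes were higher by 1.5-fold in both libraries. At the minimum of 20 CPM they were 23 (0.427%), and at 50 CPM they were 4 (0.143%). The 4 were PDLIM1, FAM83D, BLOC1S2 and PMM2, with UMIs between 51 and 122 in the chosen barcodes of a library. PMM2, a cytosolic enzyme of mannose metabolism, was at 87.5 against 55.0 CPM in WT and 129 against 85.6 CPM in KO. Just under the limit, LIN28A was at 1061 CPM (1346 UMIs) against 728 CPM in WT and 1072 CPM (859 UMIs) against 750 CPM in KO. Its log2 ratios were 0.54 (0.44 to 0.65) and 0.52 (0.39 to 0.64). GSPT1, PMF1, ZBTB44, C20orf27 and ADA2 were also among the 12 highest, with log2 ratios between 0.49 and 0.60 in both libraries. In barcodes of 500 to under 1000 UMIs, the KO ratios of PDLIM1 and BLOC1S2 and the WT ratio of GSPT1 were below 0, between −0.24 and −0.046.

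Stem cell genes were near level between the classes as a list, with differences in single genes. The core pluripotency list had medians of 0.14 in WT and 0.07 in KO over 26 genes, and its UMIs summed to 9592 against 8712 CPM in WT and 10138 against 10288 CPM in KO. POU5F1 (OCT4) was at 70.9 CPM (90 UMIs) against 38.7 CPM in WT and 79.9 CPM (64 UMIs) against 76.2 CPM in KO. SOX2 was at 252 against 396 CPM in WT and 300 against 316 CPM in KO, and NANOG had 18 and 23 UMIs in the chosen barcodes. L1TD1, an RNA-binding protein of stem cells, was at 1879 against 1319 CPM in WT and 2132 against 2007 CPM in KO. PODXL, a sialomucin of the cell surface, had log2 ratios of −1.48 in both libraries, and SFRP2 of −1.49 and −1.48, and these were the 2 genes of the list at least 1.5-fold lower in both libraries (7.69%, against 11.6% of all genes at that minimum). SOX2 was past 1.5-fold in WT, and TDGF1, a membrane-anchored co-receptor, in KO.

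Markers of other cell types summed to lower levels in the chosen barcodes than in the comparison. The neuroectoderm list summed to 1195 CPM in the chosen WT barcodes and 2090 CPM in the comparison. In KO it summed to 937 and 1038 CPM. At 8% to 20% MT- UMIs it was at 1362 CPM in WT and 907 CPM in KO. A level below the comparison was thus not particular to the chosen barcodes. CRABP1, a retinoid carrier that led this list, was at 363 against 662 CPM in WT and 302 against 252 CPM in KO. Of the 6 members at the minimum, 5 were lower by 1.5-fold in WT and 0 in KO. Of all 5392 genes at that minimum, 938 were lower in WT and 816 in KO. The 1.95-fold (WT) and 1.9-fold (KO) differences of the membrane and secreted lists stand beside sums of this list that were 1.75-fold and 1.11-fold lower. Fibroblast markers summed to 208 against 420 CPM in WT and 237 against 528 CPM in KO, of which COL1A2 and THY1, both secreted or membrane proteins, were the 2 measured. Primitive streak, mesoderm and endoderm markers summed to 69.4 and 85.6 CPM in WT and 69.9 and 94.4 CPM in KO. Amnion and trophoblast markers summed to 26.8 and 34.4 CPM and 18.7 and 35.2 CPM, with 0 of them measured. These sums rest on few UMIs and varied within the chosen barcodes. In KO barcodes of 0% to 0.5% MT- UMIs the primitive streak list was at 209 CPM (17 UMIs), and at 1% to 1.5% at 41.4 CPM (10 UMIs). The part of cells of such other types in the ratios of both libraries was not tested.

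The profile was also present in barcodes that the rule did not reach. Among barcodes of 500 to under 1000 UMIs and at least 250 genes, 1237 WT (9.15%) and 808 KO barcodes (6.78%) held under 2% MT- UMIs. In these, the median log2 ratio was −0.87 in WT and −0.90 in KO for the endoplasmic reticulum list, −1.04 and −1.06 for the secreted list, and −1.01 and −1.07 for the plasma membrane list. Among barcodes of at least 1500 UMIs the same medians were −1.24 and −1.05, −1.40 and −1.54, and −1.35 and −1.35. Low mitochondrial share was thus less common in the shallower barcodes, and the list differences there were in the same direction and smaller. Within the chosen barcodes, the membrane and secreted lists together made up 1.41%, 1.38% and 1.30% of non-MT- UMIs in WT barcodes of low, middle and high depth (3 groups of equal size), and 1.30%, 1.34% and 1.31% in KO.

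The genotypes were also set side by side within the chosen barcodes, with the same ratio in the comparison barcodes beside each value. ZNF263 was at 22.1 CPM (28 UMIs) in the chosen WT barcodes and 8.7 CPM (7 UMIs) in the KO barcodes, a log2 ratio of −1.34 (−2.78 to −0.11), and at 17.6 and 4.4 CPM in the comparison barcodes. In the chosen barcodes 2886 genes averaged at least 50 CPM over both libraries. Of these, 95 were at least 1.5-fold lower in KO (3.29%) and 51 higher (1.77%). FST was at 126 CPM in WT and 26.2 in KO, a log2 ratio of −2.27 (−3.0 to −1.6), and −2.59 in the comparison barcodes. PRTG had −2.26 and −2.28, PTN −1.15 and −1.28, TUBB2A, a neuronal tubulin, −1.34 and −1.32, CITED2, a transcriptional coregulator, −1.22 and −1.36, and GSTO1 −1.14 and −0.75.

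In the other direction, RCC2, a regulator of mitosis, was at 117 CPM in the chosen WT barcodes and 355 CPM in KO, a log2 ratio of 1.6 (1.31 to 1.9), with 1.76 in the comparison barcodes. ACTB, cytoplasmic actin, was at 2039 and 4262 CPM, a log2 ratio of 1.06 in both classes. RAVER1 had 1.53 and 1.35, and the pseudogene NONOP1, which may share reads with NONO, 1.55 and 1.28. The median of the 76 ribosomal protein genes was 0.07 in the chosen and 0.17 in the comparison barcodes, and that of 36 endoplasmic reticulum genes 0.02 and −0.06. Each genotype is 1 library, so differences between the genotypes cannot be told apart from differences between the libraries.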

How the data were processed

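The authors deposited raw UMI counts for each gene and barcode. Tools in the submitters' processing notes are featureCounts 2.0.1, Subread, STAR 2.7.10a and UMI-tools 1.1.2, with build hg38. Their roles, the annotation and the strand setting were not found in the sources. Depth was 60578040 UMIs in WT and 54559376 in KO, whose file has 15 entries over its size line, all used. Of 27540 genes in both, UMIs were summed per class and library and scaled to CPM without MT- genes, with exact conditional binomial intervals for ratios, exact Poisson intervals for levels, Clopper-Pearson intervals for shares and order-statistic intervals for list medians. No p-value was computed. Doublets were not removed. Of 1356 entries in 35 written lists, 1312 matched a symbol. The members and lists were chosen with earlier results of these data known, and the hydropathy classes and 6 lists were added after values were seen. Genes were named if among the 12 highest or lowest in both libraries at 50 CPM, among the 4 largest of a list at 20 CPM, or among the 6 largest or smallest KO over WT ratios; list members near 0 and others were named after their values were seen. X-inactive specific and Y-linked genes were left out, and a few genes that the rule names are not reported here. Coding sequences came from GENCODE release 29. The functions were tested on simulated data. NumPy 2.4.6, SciPy 1.17.1 and pandas 2.3.3 were used.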

Additional observations from a re-analysis of the deposited data

Results flagged for a closer look

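A few list medians had opposite signs in the WT and KO libraries, for the ratio of barcodes under 2% over barcodes of 3% to 8% MT- UMIs. None of these differences was tested, because each genotype has 1 library. The median of the dissociation and immediate early response list was −0.38 in WT and 0.09 in KO, a difference of 0.46 over 6 genes. That of p53 targets was −0.04 and 0.13, a difference of 0.17 over 9 genes, and that of mitophagy and mitochondrial dynamics −0.05 and 0.06, a difference of 0.10 over 16 genes. Stem cell long noncoding RNAs were at 0.23 in WT and −0.04 in KO, a difference of −0.27 over 4 genes. Chromatin and nuclear protein genes had −0.03 and 0.11, a difference of 0.14 over 41 genes. Splicing and nuclear RNA-binding genes had −0.14 and 0.00, a difference of 0.14 over 52 genes, and the intervals of their medians, −0.21 to −0.03 in WT and −0.10 to 0.06 in KO, overlapped. Those of the dissociation list, −0.90 to 0.30 in WT and −0.18 to 0.50 in KO, overlapped as well. So did those of the p53 target, mitophagy and chromatin lists. The 4 stem cell long noncoding RNAs were too few for an interval.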

How the results depend on the processing

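No paired analysis was possible because each genotype has 1 library. Over 13 alternatives, the endoplasmic reticulum list kept a median between −1.47 and −0.87 in WT and between −1.21 and −0.9 in KO, and genes with an early hydrophobic stretch between −1.25 and −0.77 and between −1.17 and −0.84. Of 4964 values of lists and named genes under alternatives, 4636 stayed within the interval of the reported value, 308 moved outside it and 20 changed sign. The cause of these shifts was not tested. With chosen barcodes under 1% MT- UMIs, 89 WT and 94 KO genes were higher, the KO over WT counts were 209 lower and 135 higher, the plasma membrane medians were −1.65 and −1.58, and 12.03% of WT and 8.81% of KO barcodes were chosen. Under 1.5%, 51 KO genes were higher, 79 genes were higher in KO than in WT, the KO medians were −1.57 (secreted) and −1.53 (plasma membrane), and the shares were 20.4% and 15.4%. Against barcodes of 4% to 6%, 74 WT and 62 KO genes were higher and the WT ribosomal median was 0.20. Against 2% to 20%, 20 WT genes were higher and the ribosomal medians were 0.14 and 0.036. At 1500 UMIs or more, 99 WT and 169 KO genes were higher, the KO over WT counts were 152 and 116, the KO ribosomal median was 0.022, and the shares were 32.2% and 28.7%. In barcodes of 500 to under 1000 UMIs, 13 WT and 17 KO genes were higher, the KO over WT counts were 162 and 97, the ribosomal medians were 0.20 and 0.15, the secreted medians −1.04 and −1.06, the plasma membrane medians −1.01 and −1.07, and the shares 9.15% and 6.78%. With CPM of all UMIs, 76 WT and 64 KO genes were higher and the ribosomal medians were 0.24 and 0.13. Centred on the median of genes tested, 19 WT and 12 KO genes were higher, and the ribosomal medians were 0.10 in WT and, with a changed sign, −0.015 in KO. After thinning to 1000 UMIs, 82 WT and 57 KO genes were higher and the KO over WT counts were 166 and 107. At a minimum of 20 CPM, 938 WT and 816 KO genes were lower, 139 and 185 higher, and the KO over WT counts were 395 and 242. At 100 CPM these were 128, 118, 15, 5, 22 and 17. Signs also changed for single genes. At 1500 UMIs or more, the WT ratio of SDHB was −0.14, and that of H4C3 was 0.094 in WT and 0.20 in KO. In barcodes of 500 to under 1000 UMIs, WT ratios were −0.19 for GSPT1, −0.10 for SDHB, 0.096 for BTG1, −0.0094 for DNAJA2 and −0.14 for RPS14P1. KO ratios there were −0.12 for the chromatin list, −0.046 for PDLIM1, −0.24 for BLOC1S2, −0.20 for RPL26L1, −0.15 for PPRC1, −0.18 for MRPS7, −0.11 for HSPD1, −0.13 for BCL2L1, −0.0021 for LYAR and −0.13 for PSMD11. Centred on the median, the KO median of annotated pseudogenes was −0.0012.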
